A study of Mus musculus with 2 samples.

Results

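The reticulon family of the mouse cerebral cortex was followed through its 4 genes, Rtn1, Rtn2, Rtn3 and Rtn4. Its members were the transcript models that the deposited tables assigned to these gene names, which came to 81 models (of 132801) in replicate 1 and 86 (of 133303) in replicate 2. The family was chosen by the read counts and form shares of these same libraries, so levels and shares are given as a description, and the tests below compare these libraries alone. Its genes stood among 18907 annotated genes with at least 1 read in either library. RNA was measured by long-read sequencing, in which 1 read can follow a transcript through all of its exons, in total RNA of left cerebral cortex from adult B6NCrl mice, 6 months old. No treatment or engineered allele was named for the 1 group of 2 libraries, which the labels number as biological replicates 1 and 2. The labels gave the samples 1 donor record between them and did not say whether they came from separate animals, so the spread between the libraries may be technical in part. The labels called the tissue male in one field and gave the sex as not collected in another. Replicate 1 held 1306424 reads and replicate 2 held 1304133 reads, so 3 counts, the limit used for a gene with no read, were 2.30 CPM (counts per 1e6 reads) in either library.

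Reticulons are membrane proteins that bend the endoplasmic reticulum into tubules and sheet edges through a conserved carboxy-terminal domain with long hydrophobic hairpins. Their genes are known for making long and short proteins that share this domain and differ in the amino-terminal part, which is set by the choice of promoter and by internal exons. In the brain Rtn1 is a marker of neurons, Rtn3 is known for binding the beta-secretase that cuts the amyloid precursor, and Rtn4 encodes Nogo, whose longest form, Nogo-A, is a myelin and neuronal protein that limits the growth of axons. Rtn2 is best known in muscle and neurons, and its human counterpart is a gene of hereditary spastic paraplegia.

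The shared domain is what ties the 4 genes together, and its gene structure could be read from the GENCODE M21 transcripts on build mm10. In each gene 5 consecutive exons of 208, 139, 70, 47 and 59 bases, 523 bases in all, encoded the domain up to the terminal exon. The terminal exon holds the end of the coding sequence and was not compared. Over these bases Rtn1 and Rtn4 were 65.2% identical, Rtn1 and Rtn3 64.4%, and Rtn3 and Rtn4 63.7%. Rtn2 stood further off, at 59.7% identity with Rtn1, 52.2% with Rtn3 and 51.8% with Rtn4. All 4 genes shared 197 of the 523 bases (37.7%), and the longest run that any pair shared was 14 bases. The 47-base and the 59-base exon are given below for each gene, 5′ to 3′ on its own strand, with capitals at the bases that are identical in all 4 genes (17 in the 47-base exon and 20 in the 59-base one).
Rtn1 47-base domain exon, chr12:72216915-72216961 (minus strand): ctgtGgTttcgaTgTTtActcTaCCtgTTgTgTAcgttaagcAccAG
Rtn2 47-base domain exon, chr7:19294419-19294465 (plus strand): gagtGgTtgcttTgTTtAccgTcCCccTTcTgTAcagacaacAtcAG
Rtn3 47-base domain exon, chr19:7430986-7431032 (minus strand): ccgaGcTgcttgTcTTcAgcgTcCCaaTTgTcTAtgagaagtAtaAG
Rtn4 47-base domain exon, chr11:29741500-29741546 (plus strand): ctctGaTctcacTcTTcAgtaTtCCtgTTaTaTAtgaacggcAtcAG
Rtn1 59-base domain exon, chr12:72216771-72216829 (minus strand): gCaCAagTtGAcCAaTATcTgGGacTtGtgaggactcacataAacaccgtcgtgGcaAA
Rtn2 59-base domain exon, chr7:19295451-19295509 (plus strand): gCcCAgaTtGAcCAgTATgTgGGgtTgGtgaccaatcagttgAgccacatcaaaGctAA
Rtn3 59-base domain exon, chr19:7429751-7429809 (minus strand): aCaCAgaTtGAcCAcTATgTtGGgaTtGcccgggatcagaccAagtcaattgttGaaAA
Rtn4 59-base domain exon, chr11:29741695-29741753 (plus strand): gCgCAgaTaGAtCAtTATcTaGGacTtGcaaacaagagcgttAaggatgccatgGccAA

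The family as a whole took 3139 and 3003 reads, a mean of 2353 ± 70.8 CPM (SD, n = 2). A read was counted once whatever its length, so levels of different genes were set side by side in CPM without division by length. Whether several reads came from copies or pieces of 1 molecule was not tested. Rtn1 (ENSMUSG00000021087.18, chr12:72211752-72409054, minus strand) held the largest share, with 2159 reads (1653 CPM) in replicate 1 and 2032 reads (1558 CPM) in replicate 2. It stood at rank 39 of 14974 protein-coding genes with reads. Rtn3 (ENSMUSG00000024758.15, chr19:7425901-7483281, minus strand) followed with 638 reads (488 CPM) and 742 reads (569 CPM). Rtn4 (ENSMUSG00000020458.16, chr11:29692947-29744331, plus strand) had 217 reads (166 CPM) and 199 reads (153 CPM). Rtn2 (ENSMUSG00000030401.16, chr7:19282624-19296160, plus strand) had 125 reads (95.7 CPM) in replicate 1 and 30 reads (23.0 CPM) in replicate 2. The order Rtn1, Rtn3, Rtn4, Rtn2 was the same in both libraries, and the ranges of neighbouring genes in that order did not overlap. In bulk tissue, fewer cells of a type and less RNA per cell cannot be told apart.

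Rtn1 made 68.8% of the family's reads in replicate 1 and 67.7% in replicate 2, Rtn3 20.3% and 24.7%, Rtn4 6.91% and 6.63%, and Rtn2 3.98% and 0.999%. The protein-coding genes closest to Rtn1 in mean level were the tubulin gene Tubb2a above it (1632 ± 387 CPM) and the proton pump subunit gene Atp6v0c below it (1600 ± 15.0 CPM). Tubb2a has a near copy, Tubb2b, so that its count is less certain. Rtn3 lay between the mitochondrial carrier gene Slc25a5 (529 ± 10.2 CPM) and Nudt3 (528 ± 29.9 CPM). Rtn4 lay between the kinesin gene Kif21a (159 ± 7.78 CPM) and the kinase gene Map2k2 (159 ± 12.3 CPM). Rtn2 lay between Nbl1, at 94.2 CPM and 24.5 CPM in the libraries, and Tvp23b (59.0 ± 9.82 CPM).

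**Figure D1:**
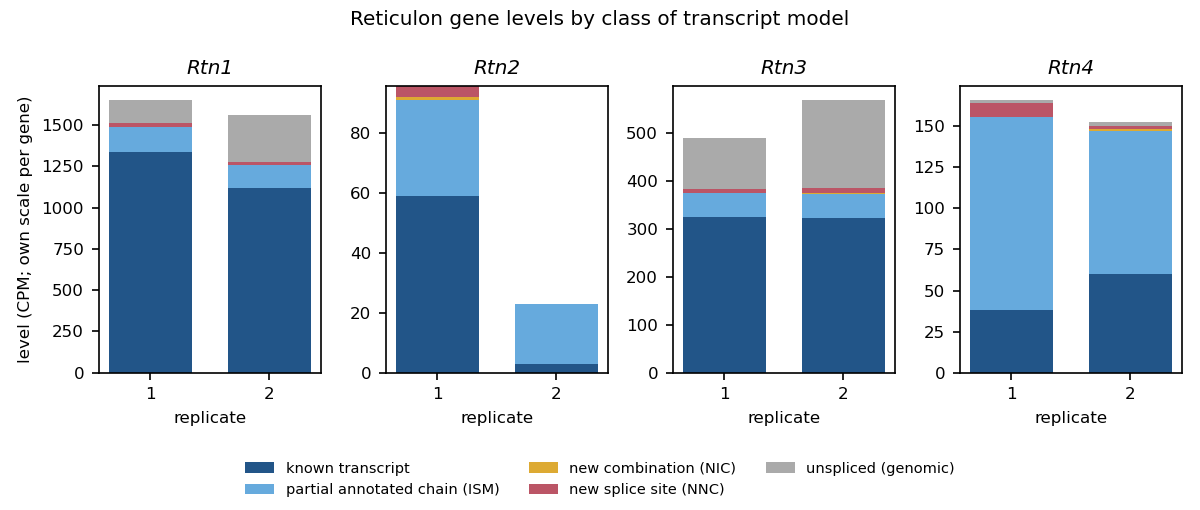
Level of each reticulon gene in each library (CPM, with its own linear scale from 0 for each gene), stacked by class of transcript model. Rtn1 and Rtn3 consist mainly of known transcripts in both replicates, Rtn4 mainly of partial chains, and the Rtn2 bar reaches 95.7 CPM in the first library and 23.0 CPM in the second.

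Each gene was compared between the 2 libraries with a two-sided exact binomial test on the totals of the libraries, with Benjamini-Hochberg adjustment over all 11838 genes with at least 10 counts; a gene was called where the adjusted p was under 0.05 and the levels differed at least 2-fold. This sets the libraries against counting noise and tests no condition. Rtn2 was called lower in replicate 2, at a log2 ratio of -2.04 or a level 4.16-fold apart (exact binomial test, adjusted p = 3.18e-13). That was 1 of the 4 members, where 5.44% of all genes tested were called lower in replicate 2, 1.61% higher and 7.05% in either direction. Rtn3 was higher in replicate 2 by 0.22 on the log2 scale (adjusted p = 0.0387), short of a 2-fold difference. With TMM factors its adjusted p was 0.0861, without the filter on low counts 0.0612, and on known transcripts alone its ratio turned to -0.01 (adjusted p = 0.994). The log2 ratio of Rtn1 was -0.08 (adjusted p = 0.241) and that of Rtn4 was -0.12 (adjusted p = 0.725). On known transcripts alone the ratio of Rtn1 was -0.26 (adjusted p = 5.37e-06, under 2-fold) and that of Rtn4 turned to 0.64 (adjusted p = 0.0709). Neither gene was called, and the exon and transcript counts below give the forms behind these totals.

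Rtn1 was read mainly as its short form. The short transcript Rtn1-201 (7 exons, 1544 bases, 624 of them coding) starts at an internal promoter, and the long transcript Rtn1-202 (9 exons, 3629 bases, 2340 coding) starts at the upstream end of the gene and adds 3 long coding exons ahead of the domain. Rtn1-201 had 1581 reads in replicate 1 and 1431 in replicate 2, and Rtn1-202 had 167 and 23. The long form was the lower of the pair in both libraries, and its 2 values lay further apart in ratio than those of the short form. Of the 7 known reticulon transcripts with enough reads, Rtn1-202 was one of 2 called lower in replicate 2, at a log2 ratio of -2.83 (exact binomial test, adjusted p = 3.03e-26), where 9.88% of all 9409 known transcripts tested were called lower. The share of Rtn1-201 among known Rtn1 reads was 90.4% in replicate 1 and 98.3% in replicate 2, with 95% Clopper-Pearson intervals of 89.0% to 91.8% and 97.5% to 98.9%. This share differed between the libraries (Fisher's exact test, Benjamini-Hochberg adjusted p = 3.63e-20), as did the leading share of 1.75% of the 2572 genes tested. The other 3 annotated transcripts had no read, which allows up to 3 counts, and Rtn1-205, a noncoding transcript, had 0 and 2.

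Reads were also assigned to promoters by the splice donor of their first exon, which brings in partial and new models that begin with an annotated first-exon donor. Long-form chains that started in the second exon (28 and 23 reads) or the third (40 and 32) do not, and were left out. The promoter shares therefore also depend on how many reads reached the 5′ end. The short promoter of Rtn1 held 1591 of 1763 assigned reads in replicate 1 (90.2%) and 1443 of 1473 in replicate 2 (98.0%), and the long promoter held 172 (9.76%) and 28 (1.90%). The difference in share was called (Fisher's exact test, adjusted p = 8.46e-19), with 3.24% of 3148 genes called in either direction. Both promoters are shown because they carry the forms, and they differ in base composition. RefSeq's windows of 250 bases before to 50 after the start (build GRCm38.p6) hold 46.3% G and C with 3 CpG for the long form and 73.3% with 43 CpG for the short form, where the median over 32851 mouse promoters is 52.7% and 7 CpG. Capitals mark matches on either strand to TATAAA (the TATA box), CCAAT and GGGCGG (the GC box), counted separately also where they overlap; 13.6%, 37.4% and 35.7% of all promoters hold them. The long window had no match, and the short one had 3 to GGGCGG.
Rtn1 long promoter, chr12:72409005-72409304 (minus strand): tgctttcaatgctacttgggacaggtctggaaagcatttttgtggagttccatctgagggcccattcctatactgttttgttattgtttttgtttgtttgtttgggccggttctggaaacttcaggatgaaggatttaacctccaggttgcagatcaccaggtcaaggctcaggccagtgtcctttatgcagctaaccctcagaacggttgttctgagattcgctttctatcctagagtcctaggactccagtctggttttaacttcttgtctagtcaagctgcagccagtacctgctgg
Rtn1 short promoter, chr12:72236678-72236977 (minus strand): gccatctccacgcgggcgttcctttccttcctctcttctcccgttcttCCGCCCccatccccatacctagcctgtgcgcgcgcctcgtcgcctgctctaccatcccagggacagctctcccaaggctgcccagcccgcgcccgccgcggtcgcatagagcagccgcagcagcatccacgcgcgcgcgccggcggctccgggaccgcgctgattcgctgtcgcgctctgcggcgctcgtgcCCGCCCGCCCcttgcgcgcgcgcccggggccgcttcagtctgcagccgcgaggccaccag

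Along the exons of Rtn1, the differences of at least 2-fold between the libraries lay upstream of the short promoter. The first exon of the long form (744 bases) was covered by 177 reads in replicate 1 and 33 in replicate 2, the second (774 bases) by 206 and 60, and the next (762 bases) by 249 and 91. Each of the 3 was called lower in replicate 2 (exact binomial test over 86442 exons, log2 ratios -2.40, -1.77 and -1.44, adjusted p = 5.00e-23, 4.86e-18 and 2.79e-16), where 8.66% of exons tested were called lower and 1.11% higher. The first exon of the short form (196 bases) was covered by 1599 and 1447 reads, a log2 ratio of -0.14 (adjusted p = 0.0499, under 2-fold). The 5 domain exons had log2 ratios from -0.25 to -0.24, short of a 2-fold difference although the largest of their adjusted p-values was 1.00e-05. In CPM the libraries lay further apart at these exons than upstream, with 1454 and 1220 CPM at the 208-base exon. The first exon of the long form had 135 and 25.3 CPM. The richest window of 100 bases held 79.0% G and C in the first exon of the long form and 79.0% in that of the short form, and 62.0% and 72.0% in the 774-base and 762-base exons. The part of base composition in the difference was not tested.

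Within the long form, the 774-base and 762-base exons were rarely skipped. The 774-base exon was included in 98.6% of informative reads in replicate 1 and 98.4% in replicate 2, and the 762-base exon in 248 of 248 reads and in 98.3%. Not all reads over these exons reached the annotated first exon. Chains that started in the second exon or later and ran to the gene's end were listed for 28 and 23 reads (774-base exon) and 40 and 32 reads (762-base exon). Unlike the full long form, these partial chains had similar counts in both libraries. A further pair of 9-exon chains joined another splice donor to the 774-base exon. In one, the donor was at chr12:72408202, downstream of the annotated donor of the long form at chr12:72408311, with 5 reads in each library. In the other it was at chr12:72374204, further inside the first intron of the long form, with 4 reads in each library. Both splice sites are outside the annotation. The short form had a companion as well, a 7-exon chain whose first exon ended at chr12:72236535, with 8 and 3 reads.

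The terminal exon of Rtn1 (826 bases, of which the last 786 follow the coding sequence) drew many reads of its own. Unspliced models within it held 186 reads in replicate 1 (8.62% of Rtn1) and 366 in replicate 2 (18.0%), where unspliced models held 8.08% and 10.7% of the reads of all annotated genes. They ran from chr12:72212289 (replicate 1) or chr12:72212323 (replicate 2) to the transcript's end at chr12:72211752. On the opposite strand an unspliced model over chr12:72211752-72212289, in no annotated gene, had 96 and 235 reads. Position 72212289 is also the annotated end of Rtn1-203, and the 20 transcript bases after it hold 18 A. Whether the library kit kept the strand is not given in the sources used here, so the strand of unspliced reads could not be checked. Rtn1's total without its unspliced and partial models is given among the alternative settings.

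Rtn2, the least abundant member, was the one whose total differed. The long transcript Rtn2-201 (10 exons, 1990 bases, 1413 coding) had 73 reads in replicate 1 and 1 in replicate 2. The short transcript Rtn2-202 (7 exons, 1076 bases, 612 coding), which starts at its own first exon just ahead of the domain, had 4 and 3. Nearly all of the known-transcript reads of replicate 1 were thus the long form, while replicate 2 held too few reads of either form for a share to be tested. Rtn2-201 was called lower in replicate 2 with a log2 ratio of -5.61 (exact binomial test, adjusted p = 4.54e-19), and the ratio of 73 to 1 rests on a single read in replicate 2.

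The Rtn2 exons showed a gradient. The first exon of the long form (242 bases) was covered by 79 reads in replicate 1 and 1 in replicate 2, the 471-base exon by 86 and 4, and the 264-base exon by 90 and 5. Of the domain exons, the 208-base one was covered by 97 and 11 reads and the 47-base one by 125 and 27, and the terminal exon by 125 and 30. The log2 ratio thus ran from -5.73 at the first exon through -3.08 at the first domain exon to -2.04 at the end. Of the Rtn2 exons tested, 10 of 10 were called lower (exact binomial test, largest adjusted p = 2.93e-13), where 8.66% of all exons tested were called lower and 1.11% higher. The Rtn2 exons share reads and are not separate evidence. In replicate 2, 26 of the 30 reads (86.7%) lay on partial chains that lacked the 5′ exons and reached the terminal exon, against 42 of 125 (33.6%) in replicate 1. The first exon had the highest peak of G and C among the Rtn2 exons, 83.0% in its richest 100 bases, and the 471-base exon had 73.0%. Among cell markers that could move with Rtn2, muscle's Ckm had no read in either library and Myh1 had 1 and 2, and the excitatory neuron marker Slc17a7 stood at 99.5 and 27.6 CPM while Camk2a stood at 299 and 530 CPM. The part of base composition and of cell content in the Rtn2 difference was not tested.

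**Figure D2:**
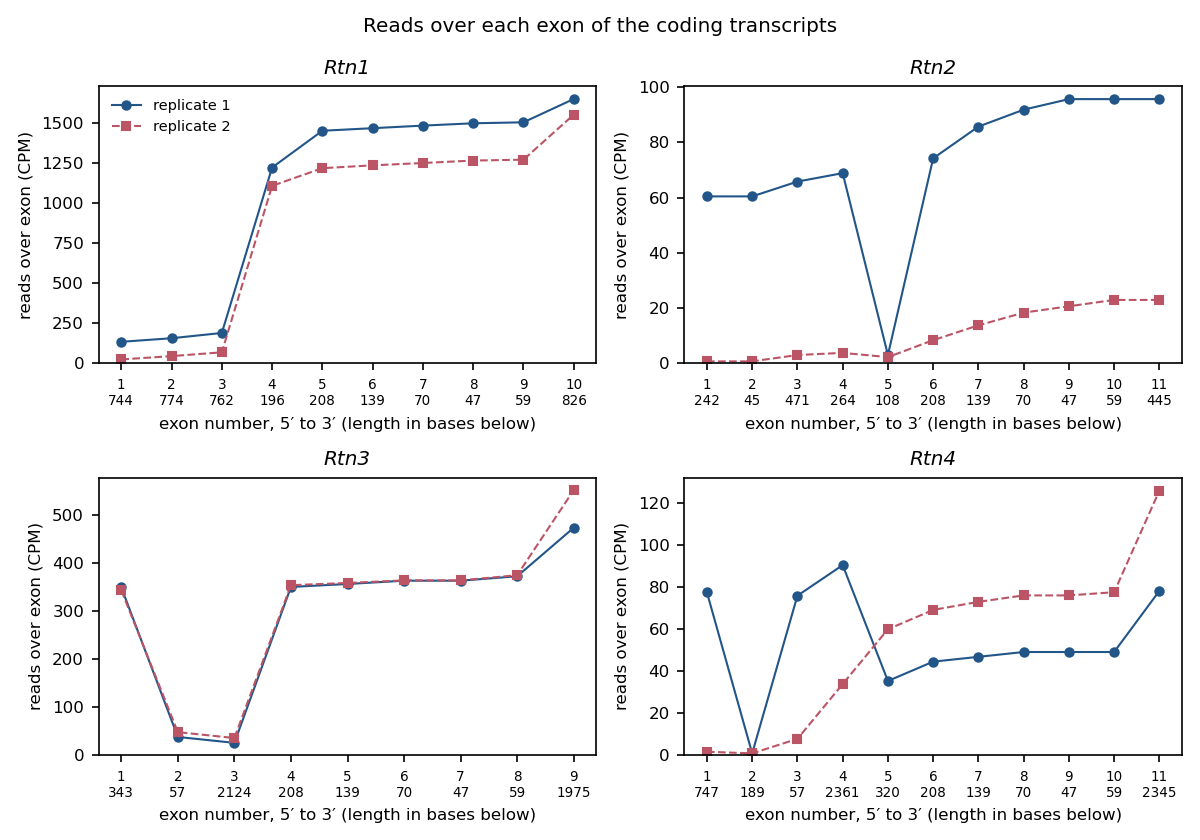
Reads over each exon of the coding transcripts in CPM (linear scale from 0), in order along the transcript with the exon length in bases under its number, for both libraries. The libraries differ at least 2-fold at Rtn1 exons 1 to 3 and at every Rtn2 exon but exon 5 (4 and 3 reads). The Rtn1 lines also lie apart, under 2-fold, at its later exons. At the upstream and downstream exons of Rtn4 the libraries separate in opposite directions, while the Rtn3 lines lie together up to the terminal exon.

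The annotated forms of Rtn3 share the splice donor of 1 first exon and differ by internal exons, so its reads were not divided by promoter. The shortest coding form, Rtn3-203 (7 exons, 2762 bases, 711 coding), had 392 and 372 reads, or 92.2% (89.3% to 94.6%) and 88.6% (85.1% to 91.5%) of known Rtn3 reads. Rtn3-201, which adds a 57-base exon, had 25 and 33 reads. Rtn3-202, which adds this exon and a 2124-base coding exon and is the longest form (5013 bases, 2892 coding), had 6 and 11, and Rtn3-205, with a shorter version of the long exon, had 1 and 4. Rtn3-204, which holds the long exon without the small one, had 1 and 0. The share of Rtn3-203 did not pass the test (Fisher's exact test, adjusted p = 0.824), and none of the 3 Rtn3 transcripts tested was called.

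The 57-base exon was included in 48 of 455 informative reads in replicate 1, or 10.5% (7.88% to 13.7%), and in 62 of 447 in replicate 2, or 13.9% (10.8% to 17.4%). The mean was 12.2% ± 2.35 (SD, n = 2), and the intervals of the libraries overlapped. The 2124-base exon was included in 1.82% and 3.24% of informative reads. Its 1161-base version went the other way, with 2.26% and 0.948%. Of the 10 reads that included this version in replicate 1, 9 lay on a partial chain that starts at chr19:7457460. Of the 15 reticulon exons with enough reads, 0 were called between the libraries (Fisher's exact test), where 0.176% of all 9637 exons tested were called. The smallest unadjusted p among them was 0.154, so 0 of the 15 had an unadjusted p under 0.05. Domain exons of Rtn1, Rtn3 and Rtn4 that were tested had inclusion of at least 98.9% in either library. Rtn4 has an exon of the same length at the same place ahead of its own long exon. Both are shown because they are the small optional exons of the family, with capitals at the 25 of 57 bases that are identical.
Rtn3 small exon, chr19:7467811-7467867 (minus strand): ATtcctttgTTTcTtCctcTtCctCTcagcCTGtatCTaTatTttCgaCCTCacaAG
Rtn4 small exon, chr11:29705535-29705591 (plus strand): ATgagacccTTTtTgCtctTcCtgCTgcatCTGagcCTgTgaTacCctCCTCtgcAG

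The 5′ end of Rtn3 was read alike in both libraries. Its first exon was covered by 456 and 447 reads (log2 ratio -0.03), and its richest 100 bases hold 79.0% G and C. The domain exons had log2 ratios from 0.00 to 0.02. The difference in the gene's total therefore lay at the 3′ end, in the terminal exon (1975 bases, of which 1932 follow the coding sequence), which was covered by 618 and 719 reads. Unspliced models held 137 Rtn3 reads in replicate 1 (21.5%) and 241 in replicate 2 (32.5%), and those of one model over chr19:7425901-7427543, within the terminal exon, came to 135 and 234. Position 7427543 is also the annotated end of Rtn3-205. On the opposite strand over the same exon, unspliced models assigned to 2700081O15Rik, a gene annotated on that strand, had 35 and 106 reads. As for Rtn1, the strand of unspliced reads could not be checked, and how many of them belong to the neighbour was not tested.

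Rtn4 was read mostly in pieces. Known transcripts held 50 of 217 reads in replicate 1 (23.0%) and 78 of 199 in replicate 2 (39.2%), and partial chains 153 (70.5%) and 114 (57.3%), where partial chains held 13.7% and 15.8% of the reads of all annotated genes. Among known transcripts the short Rtn4-201 (7 exons, 1773 bases, 597 coding), the form usually called Nogo-C, had 45 of 50 and 77 of 78 known reads, the latter a share of 98.7%. Its log2 ratio was 0.77 (exact binomial test, adjusted p = 0.0277), under 2-fold, and its share among known reads did not pass the test (Fisher's exact test, adjusted p = 0.565). Rtn4-202, a form of the upstream promoter without the long exon, had 4 and 0 reads. The longest transcript, Rtn4-205 (9 exons, 4618 bases, 3486 coding), the form usually called Nogo-A, had 0 reads in replicate 1 and 1 in replicate 2. Of the 10 annotated Rtn4 transcripts 6 had no read in either library, which allows up to 3 counts in each.

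The exons of Nogo-A were read more often than the full-length transcript. The upstream first exon of Rtn4 (747 bases) was covered by 101 reads in replicate 1 and 2 in replicate 2, the 57-base exon by 99 and 10, and the 2361-base exon that marks Nogo-A by 118 and 44. These 3 exons were called lower in replicate 2 (exact binomial test, log2 ratios -5.34, -3.24 and -1.41, adjusted p = 1.20e-25, 1.06e-17 and 1.51e-07). Together with those of Rtn1 and Rtn2, 16 of 39 reticulon exons tested were called lower and 0 higher, where 8.66% of all exons tested were lower and 1.11% higher. Many of the 39 exons share reads. The richest 100 bases of the upstream first exon held 85.0% G and C, those of the 2361-base exon 53.0%. Downstream the order turned: the first exon of the short form was covered by 46 and 78 reads, the first domain exon by 58 and 90, and the terminal exon by 102 and 164 (log2 ratio 0.68, adjusted p = 0.00186, under 2-fold). Replicate 1 was thus the higher library upstream and replicate 2 downstream, with gene totals that lay close together.

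Most reads of replicate 1 from the upstream promoter ended inside the long exon. A single partial model held 85 of the 101 upstream reads of replicate 1. It joined the first exon, the 57-base exon and the first 840 bases of the 2361-base exon, and ended at chr11:29707249. All models with at least 3 reads that ended there had 97 reads in replicate 1, and models ending 2 bases earlier, at chr11:29707247, had 27 in replicate 2. This place is shown because most upstream reads of replicate 1 ended at it. The sequence below is the 20 bases before and the 20 after the end in replicate 1, on the transcript strand and within coding sequence, with capitals at each A after the end.
Rtn4 end inside the long exon, chr11:29707230-29707269 (plus strand): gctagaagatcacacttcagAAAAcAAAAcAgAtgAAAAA
The 20 bases after the end hold 15 A, and 0.555% of 2342 windows of 20 bases in this exon hold at least as many. Rtn3 had a like case in its own long exon, where partial models ended at chr19:7456512 with 13 reads in replicate 1. Partial and unspliced models ended at chr19:7456396 with 16 reads in replicate 2, 6 of them unspliced. The 20 bases after these ends hold 10 and 11 A, and 10.1% and 4.32% of the 2105 windows of that exon hold at least as many. The sequences at these ends, with the same capitals, follow.
Rtn3 end in replicate 1, chr19:7456492-7456531 (minus strand): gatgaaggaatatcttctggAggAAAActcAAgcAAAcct
Rtn3 end in replicate 2, chr19:7456376-7456415 (minus strand): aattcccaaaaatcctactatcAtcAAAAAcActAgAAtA
The ends are those of the deposited models, and whether priming inside the transcript took part was not tested.

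Among informative reads, the 57-base exon of Rtn4 was included in 90 and skipped in 5 in replicate 1, and included in 7 and skipped in 0 in replicate 2. Most of the 90 lay on the 85-read model above, which ends before the domain. The 2361-base exon, counted with both of its ends exact, was included in 0 and skipped in 5 reads in replicate 1, and included in 10 and skipped in 0 in replicate 2. With fewer than 20 such reads in replicate 2 for the 57-base exon, and in both libraries for the 2361-base exon, neither was tested. A partial chain from the long exon to the gene's end was listed with 7 reads in replicate 1 and 9 in replicate 2. In replicate 2 its model starts at chr11:29706410, the annotated start of the long exon, so its 9 reads are among the 10 that included the exon. In replicate 1 its model starts at chr11:29707249, so its 7 reads were not counted. The counts of 0 and 10 therefore depend on where the models start. Unspliced partial models in the terminal exon held 39 and 63 reads.

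By first exon, the upstream promoter of Rtn4 held 101 of 151 assigned reads in replicate 1, or 66.9% (58.8% to 74.3%), and 2 of 88 in replicate 2, or 2.27% (0.276% to 7.97%). The short promoter held 46 (30.5%, 23.2% to 38.5%) and 78 (88.6%, 80.1% to 94.4%). The leading promoter was therefore the upstream one in replicate 1 and the short one in replicate 2, and the difference in share was called (Fisher's exact test, adjusted p = 6.72e-17). On known transcripts alone, which leave out the partial model above, the short promoter held 45 of 50 and 77 of 78 reads and the call was lost (adjusted p = 0.573). The promoters differ in base composition in the opposite sense to those of Rtn1: the RefSeq window (GRCm38.p6) of the upstream promoter has 62.3% G and C, 15 CpG, 2 matches to CCAAT and 4 to GGGCGG, and that of the short form has 39.7%, 1 CpG and no match. Capitals again mark matches on either strand.
Rtn4 upstream promoter, chr11:29692648-29692947 (plus strand): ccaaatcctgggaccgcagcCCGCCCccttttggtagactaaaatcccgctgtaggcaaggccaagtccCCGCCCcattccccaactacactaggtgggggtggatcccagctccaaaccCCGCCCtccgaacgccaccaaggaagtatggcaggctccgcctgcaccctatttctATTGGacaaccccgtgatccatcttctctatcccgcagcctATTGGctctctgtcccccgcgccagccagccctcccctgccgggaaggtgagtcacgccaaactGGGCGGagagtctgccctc
Rtn4 short promoter, chr11:29718313-29718612 (plus strand): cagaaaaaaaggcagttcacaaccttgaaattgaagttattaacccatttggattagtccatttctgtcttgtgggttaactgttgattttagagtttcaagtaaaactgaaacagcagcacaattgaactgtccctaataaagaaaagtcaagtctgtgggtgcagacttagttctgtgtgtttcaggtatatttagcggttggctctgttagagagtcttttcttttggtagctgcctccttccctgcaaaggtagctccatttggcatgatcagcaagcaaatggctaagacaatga

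**Figure D3:**
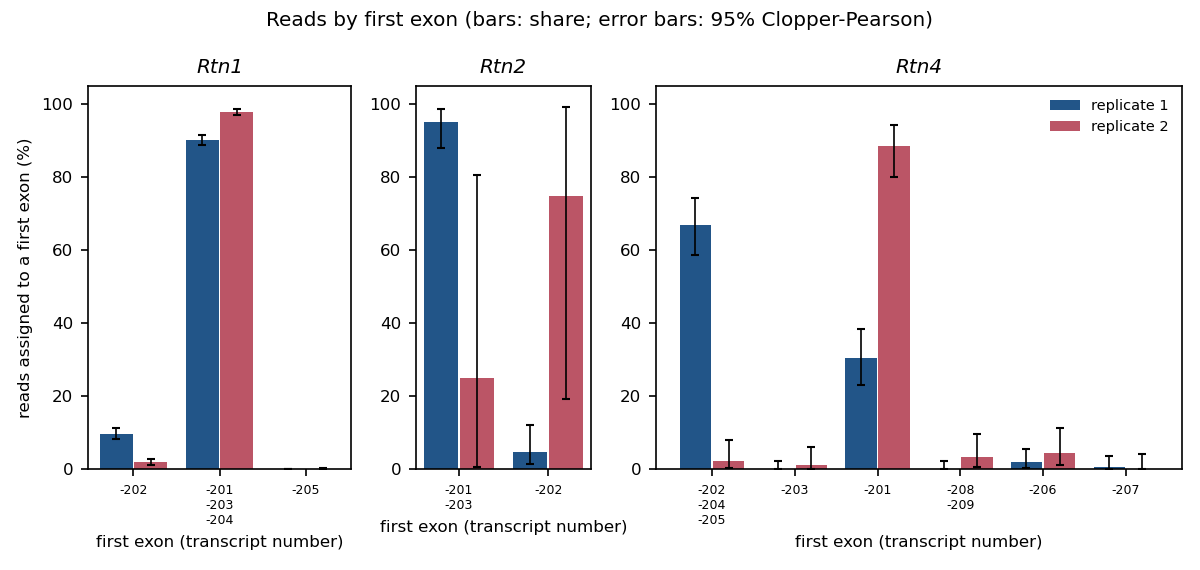
Share of the reads assigned to each annotated first exon of Rtn1, Rtn2 and Rtn4 in each library (%, with 95% Clopper-Pearson intervals as error bars, which cover counting error only); numbers name the transcripts that begin there. The short Rtn1 promoter leads in both libraries, while the leading Rtn4 promoter is the upstream one in replicate 1 (66.9%) and the short one in replicate 2 (88.6%).

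New splice chains were a small part of the family. Chains with a splice site outside the annotation held 27 and 24 reads of Rtn1, 5 and 0 of Rtn2, 12 and 12 of Rtn3, and 11 and 3 of Rtn4. Identical new chains found in both libraries numbered 5 for Rtn1 and 3 for Rtn3, and none for Rtn2 or Rtn4. One of those of Rtn3, with 4 and 1 reads, lacked the 47-base exon of the domain and joined the 70-base exon to a new site at chr19:7429842, just upstream of the 59-base exon.

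Other genes of the same biology were taken from 3 lists. Of 21 annotated genes that shape the endoplasmic reticulum, 20 were tested, 2 were lower and 1 was higher in replicate 2 (exact binomial test), where 5.44% of all genes tested were lower and 1.61% higher, with a median log2 ratio of -0.11 where the median of all genes was 0.00. Unadjusted p-values were under 0.05 for 8 of the 20, and for 22.8% of all genes tested. The most abundant were Reep5 (464 ± 33.0 CPM), a hairpin protein that curves tubules, and Arl6ip1 (371 ± 13.1 CPM), which has a similar fold, so that Rtn1 stood above each of them. Retreg2, a reticulon-homology protein, had 223 reads in replicate 1 and 74 in replicate 2 (log2 ratio -1.58, adjusted p = 1.16e-16), and Ckap4, a protein of endoplasmic reticulum sheets, had 46 and 14 (log2 ratio -1.68, adjusted p = 0.000731). Retreg3, of the same family as Retreg2, was higher in replicate 2, with 3 and 16 (log2 ratio 2.24, adjusted p = 0.0241).

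The Nogo receptor list held the other inhibitory ligands, the receptors and their signalling partners. Of 13 genes 10 were tested, 3 were lower in replicate 2 and 0 higher (exact binomial test), where 5.44% of all genes tested were lower and 1.61% higher, and the median log2 ratio was -0.42. Unadjusted p-values were under 0.05 for 6 of the 10, against 22.8% of all genes tested. The myelin ligands Mag (93.5 ± 20.5 CPM) and Omg (54.8 ± 11.3 CPM), which bind the same receptor as Nogo, were not called. Rtn4r, the Nogo receptor, had 96 and 25 reads (log2 ratio -1.92, adjusted p = 2.12e-09), its relative Rtn4rl2 had 23 and 1 (log2 ratio -3.97, adjusted p = 6.45e-05) and the co-receptor Lingo1 had 216 and 104 (log2 ratio -1.05, adjusted p = 1.36e-08). Rhoa, the small GTPase downstream of the receptor, was the most abundant at 254 ± 37.6 CPM. The single Rtn4rl2 read of replicate 2 is below the limit that a count of 0 allows.

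Of 8 genes for beta-secretase and reticulon partners, 8 were tested and 0 were called (exact binomial test), where 7.05% of all genes tested were called in either direction. Their median log2 ratio was 0.04. Of their unadjusted p-values 1 was under 0.05, against 22.8% of all genes tested. Bace1, the beta-secretase that Rtn3 binds, was at 57.8 ± 3.72 CPM, below Rtn3 at 529 ± 57.0 CPM in both libraries. The most abundant were Pgrmc1 (464 ± 15.7 CPM), a membrane protein that binds haem, and Vapa (409 ± 39.5 CPM), which tethers the endoplasmic reticulum to other membranes.

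**Figure D4:**
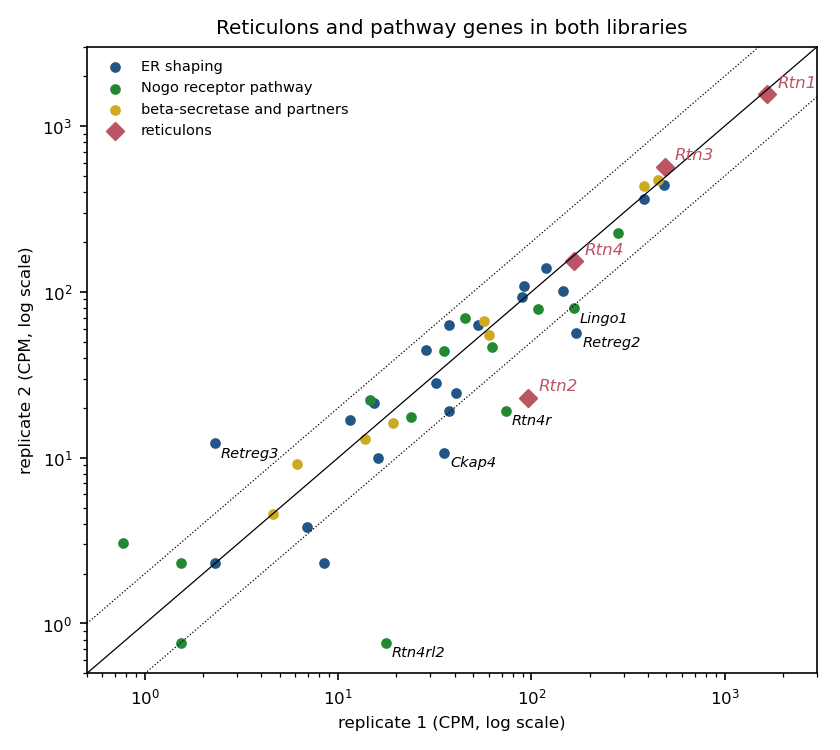
Level of the 4 reticulons (diamonds) and of the genes of the 3 lists (points) in replicate 1 against replicate 2, in CPM on log axes, with the line of equality and dotted lines at a 2-fold difference; genes called between the libraries are named. Rtn2, Rtn4r, Rtn4rl2, Lingo1, Retreg2 and Ckap4 lie below the lower dotted line and Retreg3 above the upper one; points without a name outside these lines were not called or not tested.

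The tissue label was checked against cell markers. Markers of neurons, oligodendrocytes, astrocytes, microglia and endothelial cells were read in both libraries: the 3 excitatory markers summed to 460 and 629 CPM, the 3 inhibitory ones to 231 and 284 CPM, and the 3 of oligodendrocytes, the other cells known for Nogo-A, to 4300 and 3967 CPM. Among markers of other tissue, the choroid plexus marker Ttr had 55.9 and 35.3 CPM. The single red blood cell marker Hbb-bs had 17.6 and 3.83 CPM, and the meningeal marker Dcn 23.0 and 23.8 CPM.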

How the data were processed

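Long-read libraries from 2 tissue samples of 1 group were used. The deposited tables hold counts, that is whole reads assigned to each transcript model with no normalization, and, per the file headers, other values such as exon number and length. The deposited annotations hold GENCODE M21 features on mm10 and models added by the program TALON, with each model classed as known, partial chains (ISM), new combinations (NIC), new splice sites (NNC) or unspliced (genomic). Which aligner, instrument and TALON version were used is not given in the sources used here.

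Model counts were summed per gene and scaled to the library totals, 1306424 and 1304133 reads, so that 1 read was 0.765 or 0.767 CPM. Levels are means with the SD over both libraries; shares have 95% Clopper-Pearson intervals that cover counting error only. Genes, known transcripts and exons with a summed count of at least 10 were tested by an exact two-sided binomial test, and shares with at least 20 reads in each library by Fisher's exact test, both in scipy 1.17.1 with Benjamini-Hochberg adjustment over the features tested. Log2 ratios had 0.5 counts added. Since there was 1 group, edgeR 4.0.16 and DESeq2 1.42.0 gave normalization factors only. A promoter was the set of annotated transcripts sharing the donor of the first exon. An exon counted as included where both of its ends were exact, and as skipped where an intron spanned it. Its inclusion was tested where at least 1 read included it and at least 1 skipped it. The script was tested on simulated data. Members and lists were chosen with earlier results of these data known, and the tests per transcript and per exon were added after the data were seen. Named genes were the 4 members, their transcripts with a read in each library, the protein-coding genes next above and below each in level, and of each list the 2 most abundant and the called genes; other named genes and transcripts were chosen after their values were seen. Promoter sequences came from RefSeq (GRCm38.p6) and exons from GENCODE M21 transcripts.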

Additional observations from a re-analysis of the deposited data

How the results depend on the processing

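With 2 libraries from what may be 1 animal, the tests set libraries against counting noise only. No paired analysis was possible because all samples belong to 1 group. By mean level the order Rtn1, Rtn3, Rtn4, Rtn2 was the same under TMM and DESeq2 factors and per kb of model length. It was also the same on known transcripts by mean level, and with all models in either library alone. On known transcripts, Rtn2 had 77 reads and Rtn4 50 in replicate 1, and 4 and 78 in replicate 2. Their order on known transcripts thus rested on replicate 2. On known transcripts alone the mean levels were 1227 CPM for Rtn1, 324 CPM for Rtn3, 49.0 CPM for Rtn4 and 31.0 CPM for Rtn2, since partial and unspliced models were left out. The Rtn2 ratio was then -4.10 (log2), still called, and among all genes 811 instead of 644 were lower in replicate 2 and 77 instead of 191 higher. Per kb of mean model length Rtn1, Rtn3 and Rtn4 had 1071, 218 and 110.1 CPM. With partial chains in the denominator, the leading Rtn4 transcript held a mean of 31.1% and its share passed the test (adjusted p = 0.00246). The leading Rtn4 promoter held a mean of 94.4% on known transcripts alone and the call was lost. With promoters of protein-coding transcripts only, an alternative chosen after seeing the data, it held 63.8% (adjusted p = 1.46e-21). Leaving out either library gave 1558 and 1653 CPM for Rtn1, 488 and 569 for Rtn3, 153 and 166 for Rtn4 and 23.0 and 95.7 for Rtn2. Low counts limit the shares of Rtn2, with 30 reads in replicate 2, at a depth like that of replicate 1.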
